A study of Rattus norvegicus with 82 samples.

Results

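Tceal7 and Hs3st2 were followed through every library of a series of rat cardiomyocyte RNA-seq. The genes were taken by their symbols, 2 of the 17337 genes counted, because their read counts were high in the right ventricle (RV) upon banding of the pulmonary artery (PAB). Their values in RV PAB-H and RV PAB-F against the RV sham groups are therefore given as a description, without a test. The tests below concern the left ventricle (LV), under banding of the pulmonary artery or of the aorta (AOB), and sex. Comparisons between groups that reuse the RV sham libraries are also given without a test. The tests of sex over all groups and within RV groups do include libraries on which the genes were chosen. The LV sham and LV PAB libraries did not serve in the choice, but they come from the same rats as the RV libraries that did. Both genes passed the filter on low counts, which left 11954 genes to test.

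Cardiac myocytes were isolated by collagenase digestion of the perfused heart, ventricle by ventricle, from 41 rats, the first-generation offspring of female Wistar Kyoto and male Lewis rats, and gave 82 libraries in 12 groups. A clip that did not constrict at first was placed around the pulmonary artery to load the RV, or around the aorta to load the LV, and sham-operated rats served as controls. H marks compensated hypertrophy, with labels of 7 weeks of treatment and 11 weeks of age, and F marks heart failure. For failure the labels give 22 weeks of treatment and 28 weeks of age in PAB-F but 26 and 31 weeks in AOB-F and Sham-F, so that the PAB-F rats were younger than their Sham-F controls. The study's methods call the sham animals age-matched, and the age at surgery given there does not add up with the labels' ages. Each ventricle had 7 Sham-H (3 male), 6 PAB-H (4 male), 6 AOB-H (2 male), 9 Sham-F (4 male), 6 PAB-F (4 male) and 7 AOB-F (4 male) libraries, and the ventricle that is not loaded by the clip comes from the same animals.

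Tceal7 belongs to the transcription elongation factor A-like (TCEAL) proteins, small nuclear proteins related in sequence to the elongation factor TFIIS and to the brain-expressed X-linked (BEX) proteins, and it has been described as a regulator of Myc activity, cyclin D1 and skeletal muscle differentiation. Hs3st2 encodes a heparan sulfate 3-O-sulfotransferase, a Golgi enzyme that adds a rare sulfate group to the glucosamine units of heparan sulfate and so changes which growth factors and other proteins the chain binds. Heparan sulfate is carried by core proteins such as syndecans and glypicans at the cell surface, and Hs3st2 is best known from neurons. Natriuretic peptides (Nppa, Nppb) and ankyrin-repeat proteins of the sarcomere are the classical transcripts that rise in loaded ventricles.

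The promoter sequences of both genes are shown because both transcripts were high in the same loaded ventricle, and they show what the sequences just before the start sites share and where they differ. They cover 250 bases before and 50 bases after the annotated start site, from RefSeq on the GRCr8 assembly, whereas the counts were made on an older assembly. The window of Tceal7 lies at chrX:104019834-104020133 and that of Hs3st2 at chr1:185387213-185387512, both on the plus strand. Capitals mark matches to the E-box (CANNTG), the MCAT element (CATTCC) and the core of the cAMP response element (TGACGT).

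Tceal7: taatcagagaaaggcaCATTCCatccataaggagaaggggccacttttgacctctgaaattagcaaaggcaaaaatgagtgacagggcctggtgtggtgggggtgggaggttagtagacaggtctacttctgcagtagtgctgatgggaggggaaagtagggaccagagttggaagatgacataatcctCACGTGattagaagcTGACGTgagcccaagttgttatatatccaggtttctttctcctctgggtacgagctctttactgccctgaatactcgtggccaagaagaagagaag

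Hs3st2: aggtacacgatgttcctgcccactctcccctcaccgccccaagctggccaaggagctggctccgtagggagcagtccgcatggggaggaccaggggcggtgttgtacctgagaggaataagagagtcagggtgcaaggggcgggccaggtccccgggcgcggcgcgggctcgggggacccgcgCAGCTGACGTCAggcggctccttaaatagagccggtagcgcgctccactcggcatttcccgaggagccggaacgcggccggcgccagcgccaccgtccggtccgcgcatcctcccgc

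The windows differed in base composition, with 48% G and C in Tceal7 and 70% in Hs3st2, where the median over 33469 promoters was 51.7%. Each held 1 E-box, starting at position -61 in Tceal7 and -67 in Hs3st2, and 72.1% of all promoters of this length held at least 1 on either strand. Both also held the core TGACGT, which 7.9% of promoters held. In Tceal7 it occurred once, at -46, and in Hs3st2 both strands of the full palindrome TGACGTCA matched at -63 and -61, overlapping the E-box. The full palindrome was held by 1.8% of promoters and was not matched in Tceal7. An MCAT element, a motif known from cardiac muscle genes and held by 14.2% of promoters, was matched once in Tceal7, at -234, and not in Hs3st2. The AP-1 letters TGANTCA, held by 7.3% of promoters, were found in neither window. The same held for the GATA letters AGATAA (11.6%) and for MEF2 (3.3%) and CArG (1.6%). The TATA letters TATAAA, held by 14.2%, were also not found. Other forms of the TATA box were not searched, and the Tceal7 window does hold the letters tatatat between TGACGT and the start site. These are matches of letters and no measured binding.

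In the RefSeq annotation Tceal7 lies on chromosome X within a run of its own relatives, with Bex1 and Tceal9 as the nearest annotated coding genes on either side. Hs3st2 lies on chromosome 1 between Otoa and an uncharacterised locus. Tceal7 overlaps 1 long noncoding RNA gene, and Hs3st2 overlaps 1 long noncoding RNA gene and a Gapdh pseudogene. Whether the counting used strand is not given in the sources used here, so that reads from these overlapping genes cannot be told apart from reads of the 2 genes.

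The depth of the libraries ran from 6675287 to 19665439 gene counts (median 13074485.5), and all libraries differed by more than sampling noise. The 9 ventricular cardiomyocyte markers, among them Myh6, Myl2 and Tnnt2, took between 6.05% and 12.9% of the counts in every library, whereas the 10 fibroblast markers took 0.0153% to 0.303% and the 7 endothelial markers 0.0606% to 0.496%. LV Sham-F, the control of the LV failure comparisons, stood far apart from other sham groups. Between RV Sham-F and LV Sham-F 74.3% of genes were called, and between LV Sham-F and LV Sham-H 57.4%. Between RV Sham-F and RV Sham-H the share was 0.0502%. The female LV AOB-F libraries differed from the male ones in 28.3% of genes. In bulk samples, fewer cells of a type and less RNA per cell cannot be told apart.

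In the RV of sham-operated rats both transcripts were scarce. Tceal7 had between 4 and 17 reads per library in RV Sham-H (median 13) and between 10 and 43 in RV Sham-F (median 12). Hs3st2 had 0, 1 or 2 reads in each of these 16 libraries, 4 reads in all in RV Sham-H and 7 in all in RV Sham-F. In 4 of 7 and 3 of 9 of them Hs3st2 was not detected at all, and a count of 0 allows up to 3 reads. These controls therefore set the ratios of Hs3st2 by very few reads.

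In the compensated RV, the raw counts of Tceal7 in RV PAB-H were 24, 86, 93 and 70 in the male libraries 1 to 4 and 72 and 65 in the female libraries 5 and 6. The lowest of these lay above the highest sham library, so that the groups did not overlap, and library 1 stood apart from the other 5. As normalized counts, that is raw counts set to the same effective library size, the means were 69.4 ± 25.3 (SD, n = 6) and 12.5 ± 5.00 (SD, n = 7), a ratio of 5.55. Each library left out in turn kept the ratio between 5.01 and 6.32, the latter without RV PAB-H library 1.

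Hs3st2 in RV PAB-H had 0, 6, 8, 6, 9 and 7 reads in libraries 1 to 6. The library without a read was the one that was lowest for Tceal7, and the other 5 lay above every sham library. The mean normalized counts were 6.20 ± 3.36 (SD, n = 6) and 0.613 ± 0.852 (SD, n = 7), a ratio of 10.1, which became 17.6 without RV Sham-H library 4 and 8.67 without RV Sham-H library 1. An exact 95% interval for the ratio of the summed reads, 36 against 4, ran from 3.63 to 39.1 and covers counting error only.

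In the failing RV both genes had their highest mean and their largest SD of the 12 groups. Relative to the mean, the spread was not the widest. The SD of Tceal7 was 66.5% of its mean in RV PAB-F and 93.3% in LV Sham-F. That of Hs3st2 was 110.7% in RV PAB-F and 139.2% in RV Sham-H. Tceal7 had 247, 355, 38 and 192 reads in the male RV PAB-F libraries 1 to 4 and 190 and 53 in the female libraries 5 and 6. Libraries 3 and 6 were low, yet all 6 lay above the sham libraries once normalized, 44.3 to 325 against 11.4 to 41.1. The mean was 186 ± 124 (SD, n = 6) against 20.4 ± 10.4 (SD, n = 9), a ratio of 9.12 that stayed between 7.75, without library 2, and 10.5, without library 3. No single library held more than 29.2% of the group's normalized counts of Tceal7.

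Hs3st2 had 146, 125, 5, 22, 61 and 9 reads in the same 6 RV PAB-F libraries. Libraries 1 and 2 were again the highest and libraries 3 and 6 the lowest, and none overlapped the sham group, whose libraries reached a normalized count of 2.50 where the lowest RV PAB-F library had 5.82. The mean was 65.9 ± 72.9 (SD, n = 6), with an SD larger than the mean, against 0.894 ± 0.811 (SD, n = 9). The ratio of 73.7 rested on few libraries. Library 1 held 48.1% of the group's normalized counts, and libraries 1 and 2 together held 77.1%.

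Without library 1 the mean normalized count of Hs3st2 in RV PAB-F was 41.0, and the ratio became 45.9. For regulated genes the study required a mean read count over 50 in disease, on a scale it does not name. Read on the scale used here, the mean without library 1 falls under that limit. Without RV Sham-F library 2 the ratio became 95.0. The ratio of the group medians was 37.1, and the exact 95% interval for the ratio of summed reads, 368 against 7, ran from 34.03 to 177. For Tceal7 no library moved the mean of RV PAB-F below 158. The plot of ratios without single libraries shows this contrast between the genes.

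Among all genes tested, 3.91% were called higher in RV PAB-H and 7.66% in RV PAB-F at an adjusted p under 0.05 (edgeR's quasi-likelihood test with Benjamini-Hochberg adjustment), and in 1.32% and 1.24% every banded library lay above every sham library. These shares are given as the background and nothing is read from them for the 2 genes, which were chosen on these contrasts.

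**Figure D1:**
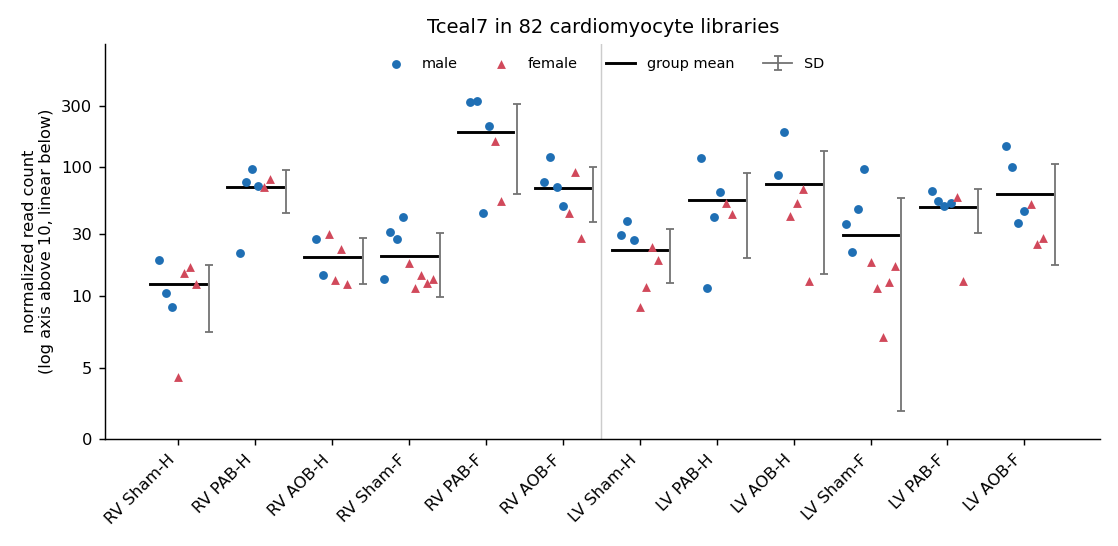
Normalized read counts of Tceal7 (vertical axis, log scale above 10 and linear below) in the 12 groups (horizontal axis), 1 symbol per library, with male libraries as circles, female ones as triangles, group means as black lines and the SD as a gray bar that ends at 0. The RV PAB-F libraries range from 44.3 to 325, above the RV Sham-F libraries at 11.4 to 41.1, while the LV groups overlap.

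**Figure D2:**
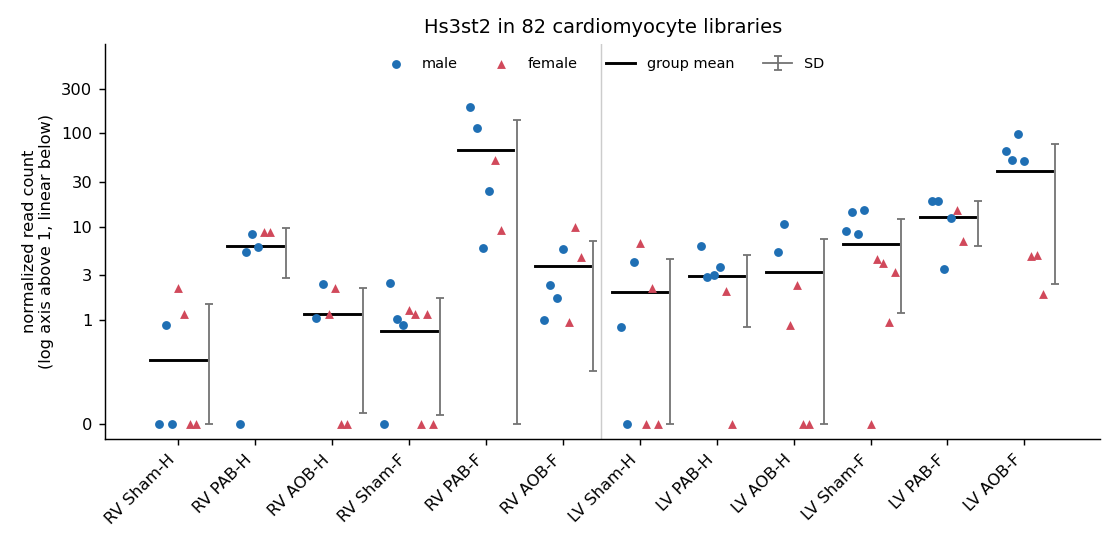
Normalized read counts of Hs3st2 (vertical axis, log scale above 1 and linear below) in the 12 groups (horizontal axis), with symbols as in the plot of Tceal7. The RV sham libraries lie between 0 and 2.50, the RV PAB-F libraries range from 5.82 to 190, and the 4 male LV AOB-F libraries stand at 50.03 to 99.0 above the 3 female ones.

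**Figure D3:**
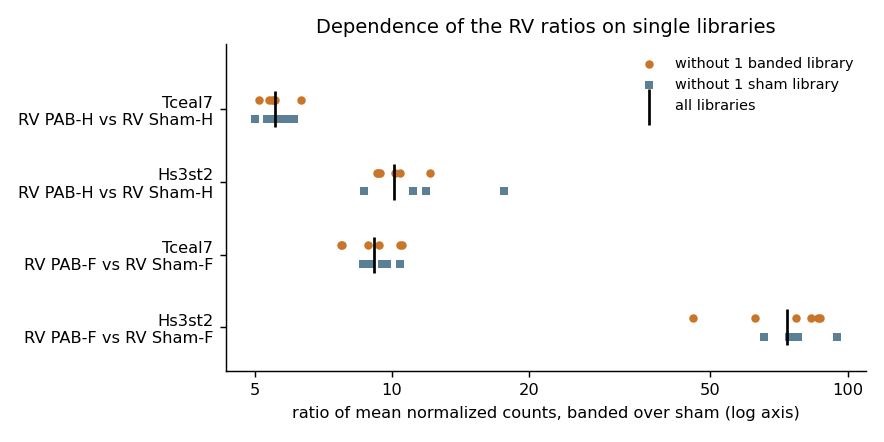
Ratios of mean normalized counts, banded over sham RV (horizontal axis, log scale), for each gene and stage (vertical axis), with all libraries (black bar) and without 1 banded (circle) or 1 sham (square) library. The ratios of Tceal7 stay near 5.55 and 9.12, whereas that of Hs3st2 in RV PAB-F runs from 45.9 to 95.0.

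The libraries of RV PAB-F that were high for both genes were also high for the natriuretic peptides. Nppa, which encodes atrial natriuretic peptide, had normalized counts of 100876, 21520, 1217, 4512, 12843 and 910 in libraries 1 to 6, and Nppb, which encodes brain natriuretic peptide, was also highest in libraries 1 and 2 and lowest in libraries 3 and 6. The fibroblast markers took between 0.0277% and 0.200% of counts in RV PAB-F, with the highest share in library 1, against 0.0153% to 0.0509% in RV Sham-F, and Col1a2 of that list was at 0 in every library of both groups. Library 2, high for both genes, had a fibroblast share of 0.0627%, and library 3, low for both, one of 0.0790%. In RV PAB-H the fibroblast share was highest, at 0.303%, in library 2. The endothelial markers took 0.0842% to 0.194% in RV PAB-F and 0.0606% to 0.104% in RV Sham-F, with no marker of that list at 0. The part of these cells in the counts of the 2 genes was not tested.

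Across all groups, the order of the mean normalized counts of Tceal7 was led by RV PAB-F (186), followed by LV AOB-H (74.5 ± 59.6), RV PAB-H (69.4), RV AOB-F (68.6 ± 31.0) and LV AOB-F (61.9 ± 44.5), and ended with RV Sham-F (20.4), RV AOB-H (20.2 ± 7.76) and RV Sham-H (12.5). That of Hs3st2 was led by RV PAB-F (65.9) and LV AOB-F (39.4 ± 36.99), followed at a distance by LV PAB-F (12.6 ± 6.33) and LV Sham-F (6.56 ± 5.39), and ended with RV AOB-H (1.15 ± 1.04), RV Sham-F (0.894) and RV Sham-H (0.613). In both orders the libraries of all 11 pairs of neighbouring groups overlapped, and no step between neighbours exceeded the larger of their SDs. On a scale that corrects for gene length, the FPKM values of the authors (fragments per length of the gene and depth of the library), the level of Hs3st2 in RV PAB-F was 2.11 ± 2.33 (n = 6) and that of Tceal7 was 13.9 ± 9.22 (n = 6).

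In the ventricle loaded by AOB, the question was whether both genes also respond on the left. Hs3st2 rose in LV AOB-F. Its raw counts were 62, 55, 96 and 65 in the 4 male libraries and 5, 6 and 2 in the 3 female ones, against 12, 13, 8 and 16 in the male and 0, 5, 4, 1 and 4 in the female LV Sham-F libraries. The male banded libraries lay above every sham library, whereas the female ones lay within the sham range. The log2 fold change was 2.55 ± 0.58 (SE), with an adjusted p of 0.00235 (edgeR's quasi-likelihood test with Benjamini-Hochberg adjustment), in a comparison in which 12.9% of genes were called and 8.54% were called higher. The adjusted p stayed between 0.000652 and 0.0152 over the 21 alternative settings in which Hs3st2 was tested. Fitted on LV AOB-F and LV Sham-F alone, Hs3st2 did not pass the count filter and had no test. In that fit the called genes went from 1541 to 15.

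Tceal7 did not pass the threshold in LV AOB-F. Its raw counts ran from 30 to 140 (median 53), with libraries 1 and 2 at 140 and 108, against 7 to 103 (median 20) in LV Sham-F, and the groups overlapped. The log2 fold change was 1.04 ± 0.42 (SE, adjusted p = 0.0830, edgeR). The sham group held 1 high library, LV Sham-F library 4 with 103 reads, and without it the log2 fold change was 1.52 with an adjusted p of 0.00962. Without LV Sham-F library 3 the adjusted p was 0.0453.

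At the compensated stage the LV gave no call for either gene. Tceal7 had 97, 155, 44, 45, 64 and 8 reads in LV AOB-H libraries 1 to 6 against 14 to 34 (median 22) in LV Sham-H, and 5 of the 6 libraries lay above every sham library. The log2 fold change was 1.74 ± 0.47 (SE, adjusted p = 0.0982, edgeR), where 0.0167% of genes were called, and leaving out LV Sham-H library 2 gave an adjusted p of 0.0449. Hs3st2 had 0 to 9 reads in LV AOB-H (median 1.5) and 0 to 10 in LV Sham-H (median 1), and its log2 fold change of 0.62 ± 0.91 (SE, adjusted p = 0.733) reversed to -0.14 without LV AOB-H library 2.

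In the LV opposite a pulmonary clip, neither gene passed the threshold. In the LV of PAB-H rats Tceal7 had 133, 12, 41, 69, 52 and 40 reads, above all LV Sham-H libraries in 5 of 6, with a log2 fold change of 1.30 ± 0.47 (SE, adjusted p = 0.991, edgeR), and Hs3st2 had 0 to 7. In the LV of PAB-F rats Tceal7 had 15 to 73 reads (median 64) and Hs3st2 had 5 to 25 (median 14.5), with log2 fold changes of 0.71 ± 0.44 and 0.91 ± 0.63 (SE, adjusted p = 0.9997 for both). In both comparisons edgeR called 0% of genes, while 305 in LV PAB-H and 453 in LV PAB-F had an unadjusted p under 0.05, and DESeq2 also called 0 in each.

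The RV sham libraries took part in the choice of the genes, as the low side of the RV ratios. Comparisons between groups that use them are therefore given as values, without a test. In the RV of AOB-F rats Tceal7 had 24 to 100 reads (median 76), and 6 of the 7 libraries lay above every RV Sham-F library, with a log2 fold change of 1.73. Hs3st2 had 1 to 10 reads in these 7 libraries (median 2) and a log2 fold change of 1.91. RV AOB-H overlapped with RV Sham-H for both genes, with 9 to 26 reads of Tceal7 and 0 to 2 of Hs3st2, and log2 fold changes of 0.72 and 0.80.

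The LV minus RV difference of the responses to AOB, which also uses the RV sham libraries, was -0.69 for Tceal7 and 0.64 for Hs3st2 at failure and 1.02 and -0.18 at hypertrophy (log2). Whether the response differs between the ventricles of AOB hearts is thus not answered for these genes.

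Hs3st2 had 7 reads in the 9 RV Sham-F libraries and 63 in the 9 LV Sham-F libraries, which overlapped, a log2 difference of -2.72. Because genes with few reads in RV Sham-F give large RV ratios, a low RV level is favoured by the choice itself. Endothelial markers took 0.193% to 0.337% of counts in LV Sham-F and 0.0606% to 0.104% in RV Sham-F, without overlap and with none of the 7 genes at 0, and the part of these cells was not tested.

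The log2 difference of RV from LV sham libraries was -0.54 in Sham-F and -0.85 in Sham-H for Tceal7, and -1.63 in Sham-H for Hs3st2, with 4 reads in the RV and 17 in the LV. The LV sham libraries did not serve to choose the genes, but they share their rats with the RV sham libraries, which did. Between the LV sham stages, Hs3st2 had 63 reads in LV Sham-F and 17 in LV Sham-H, 10 of the 17 in LV Sham-H library 4. Its log2 fold change of 1.59 ± 0.75 (SE) had an adjusted p of 0.0637 (edgeR), which became 0.0158 without that library. Tceal7 did not pass between the LV sham stages (0.42 ± 0.44, SE, adjusted p = 0.425).

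Within hearts, the RV and LV of 1 animal could be set side by side. In PAB-F hearts the RV had more Tceal7 than the LV in 5 of 6 animals and more Hs3st2 in 6 of 6, and in PAB-H hearts in 5 of 6 for both genes. In sham hearts the RV had more in 1 of 7 (Sham-H) and 2 of 9 (Sham-F) animals for Tceal7 and in 2 of 7 and 2 of 9 for Hs3st2. In AOB-F hearts it had more in 4 of 7 and 2 of 7 animals, respectively, and in AOB-H hearts in 0 of 6 and 1 of 6, with 2 equal for Hs3st2. The PAB and sham counts include the libraries on which the genes were chosen, and none carries a test.

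**Figure D4:**
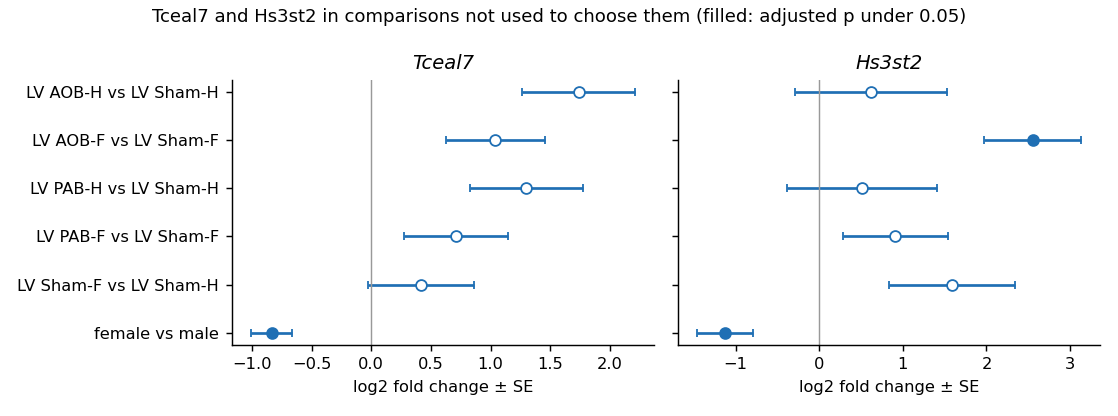
Log2 fold changes with their SE (horizontal axes) of Tceal7 (left) and Hs3st2 (right) in the LV comparisons and between the sexes (vertical axis), from edgeR, filled where the adjusted p was under 0.05. Tceal7 is filled for sex alone (-0.84), and Hs3st2 for LV AOB-F (2.55) and sex (-1.13).

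Averaged over all groups, both genes were lower in females than in males. With sex added to the group means, the log2 difference of females from males was -0.84 ± 0.17 for Tceal7 and -1.13 ± 0.33 for Hs3st2 (SE), with adjusted p of 0.000255 and 0.0108 (edgeR), in a comparison with 17.2% of genes called and 9% called lower. This fit took the 82 libraries as independent, although each of the 41 rats gave an RV and an LV library of the same sex. Its p-values thus rest on fewer independent animals than libraries, and no block by animal was used for sex. The fit also included the RV sham and RV PAB libraries, on which the genes were chosen. Leaving out in turn each of the 22 libraries of LV AOB-F, LV Sham-F and RV PAB-F kept the differences between -0.86 and -0.77 for Tceal7 and between -1.20 and -1.01 for Hs3st2, and both passed each time.

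The sexes were then compared within groups, a step added after the values were seen. The RV and LV groups of a condition hold the same rats, so that the 12 groups are not independent. Tceal7 was higher in males in 11 of 12 groups and Hs3st2 in 8 of 12, by the sign of the fitted log2 difference. The exceptions were RV PAB-H for Tceal7 (-0.18 for males from females) and, for Hs3st2, RV Sham-H (-1.22), RV PAB-H (-0.83), RV AOB-F (-0.96) and LV Sham-H (-0.44). In RV PAB-H all 4 male libraries of Hs3st2, at 0 to 8.34, lay below both female ones, at 8.64 and 8.79, where 30% of genes separated the sexes in either direction. Outside LV AOB-F and LV Sham-F the lowest adjusted p was 0.265 for Tceal7 and 0.426 for Hs3st2 (edgeR). These other groups include the RV sham and RV PAB groups, on which the genes were chosen.

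In LV AOB-F the 4 male libraries of Hs3st2 had normalized counts of 50.03 to 99.0 (mean 66.1 ± 22.8, SD) and the 3 female ones 1.88 to 4.91 (mean 3.88 ± 1.73, SD), without overlap. The log2 difference of males from females was 4.04 ± 0.81 (SE, adjusted p = 0.000145, edgeR). As background, 28.3% of genes were called in this comparison, and in 14.9% every male library lay above every female one. Without LV AOB-F library 7 the called genes went from 3383 to 1745. An exact permutation test of Hs3st2 gave the smallest two-sided p that 4 against 3 libraries allow, 0.0571. Tceal7 did not pass in LV AOB-F, with a log2 difference of males from females of 1.23 ± 0.55 (SE, adjusted p = 0.0843, edgeR).

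Other measures moved with the sexes in LV AOB-F. The fibroblast markers took 0.101% to 0.139% of counts in males and 0.0674% to 0.0816% in females, and the endothelial markers 0.322% to 0.399% and 0.189% to 0.283%, with no gene of either list at 0 in the group. Schwann cell markers took 0.00178% to 0.00269% and 0.000762% to 0.00171%, and red blood cell markers 0.00112% to 0.00578% and 0.000500% to 0.000753%. Nppa was also higher in the males, with normalized counts of 20532 to 32336 against 4825 to 16028, whereas Nppb overlapped, at 9277 to 13400 in males and 6107 to 13945 in females. The part of these differences in the counts of Hs3st2 was not tested.

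In LV Sham-F both genes were again higher in males, without overlap of the sexes. Hs3st2 had 8 to 16 reads in males and 0 to 5 in females, a log2 difference of 2.07 ± 0.75 (SE, adjusted p = 0.0787), and Tceal7 had 20 to 103 and 7 to 21 reads, which as normalized counts of 21.9 to 95.9 and 7.14 to 18.5 gave a log2 difference of 1.90 ± 0.51 (SE, adjusted p = 0.0164, edgeR). The call for Tceal7 rested on LV Sham-F library 4, without which the difference was 1.39 and the adjusted p 0.110. In this group 6.4% of genes were called, and in 5.3% every male library lay above every female one. Without LV Sham-F library 3 the called genes went from 765 to 216. Nppa also separated the sexes in LV Sham-F, with normalized counts of 6568 to 12453 in males and 1919 to 3106 in females, and Nppb did not. Schwann cell markers, at 0.00215% to 0.00231% and 0.000714% to 0.00174%, and neutrophil markers, at 3.13e-05% to 9.37e-05% and 7.59e-06% to 2.88e-05%, separated them as well, whereas fibroblast and endothelial markers overlapped. The part of these differences in the counts of both genes was not tested.

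The change upon AOB at failure was also taken within each sex. In males the log2 fold change of Hs3st2 was 2.51 ± 0.64 (SE), with banded libraries at 50.03 to 99.0 and sham libraries at 8.25 to 14.9, and its unadjusted p of 0.000216 became 0.230 upon adjustment (edgeR), where 0 genes were called (0%), 747 had an unadjusted p under 0.05 and DESeq2 called 6. In 1.1% of genes every male banded library lay above every male sham library. In females it was 0.54 ± 0.92 (SE, adjusted p = 0.687), where 26.3% of genes were called, 3143 with all libraries and 1227 without LV AOB-F library 7. The difference between the sexes, 1.97 ± 1.15 (SE), did not pass (adjusted p = 0.343, with 3.36% of genes called), so that the response was not shown to differ between males and females. Mural cell markers took 0.150% to 0.158% of counts in male LV AOB-F and 0.0952% to 0.139% in male LV Sham-F, without overlap and with no gene of the list at 0, and their part was not tested.

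For Tceal7 the order of the sexes was the other way. In females the log2 fold change was 1.37 ± 0.56 (SE, adjusted p = 0.0597, edgeR), with all 3 banded libraries, at 25.4 to 51.5, above all 5 sham libraries, at 7.14 to 18.5, as in 14.5% of genes. In males it was 0.70 ± 0.49 (SE, adjusted p = 0.851). The difference of males from females, -0.67 ± 0.74 (SE, adjusted p = 0.651), did not pass either.

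**Figure D5:**
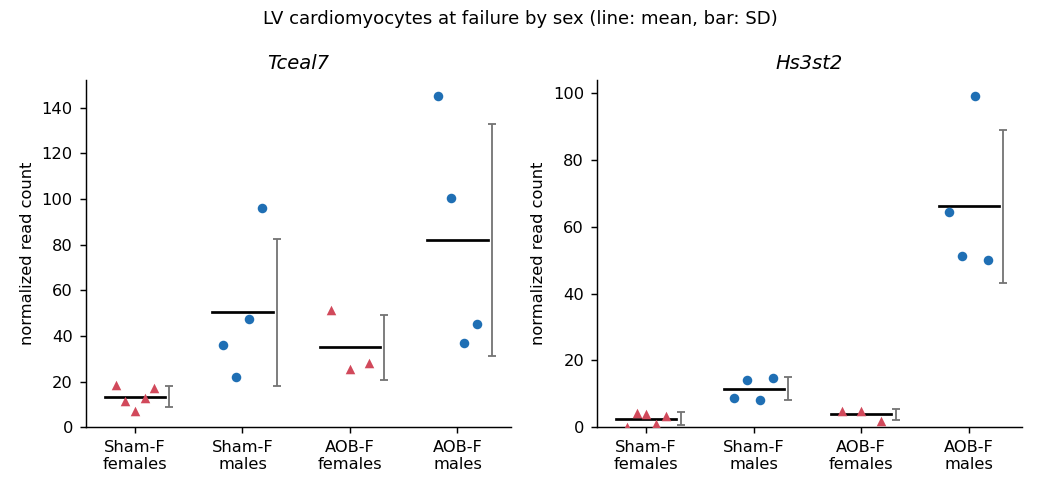
Normalized read counts (vertical axes) of Tceal7 (left) and Hs3st2 (right) in female (triangles) and male (circles) LV Sham-F and LV AOB-F libraries, with means as lines and the SD as bars that end at 0. For Hs3st2 the 4 male LV AOB-F libraries lie at 50.03 to 99.0, and the 3 female ones at 1.88 to 4.91.

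The relatives of Tceal7 were examined next, from lists fixed beside the 2 genes. Of 11 TCEAL and BEX genes listed, 8 were in the table and 5 besides Tceal7 could be tested. Bex1, the direct neighbour of Tceal7, rose in RV PAB-F by 2.77 ± 0.38 on the log2 scale (SE, adjusted p = 1.26e-07, edgeR). Tceal9, the neighbour on the other side, which the table lists under its older name Wbp5, rose in RV PAB-F by 0.74 ± 0.22 (SE, adjusted p = 0.0209) and in LV AOB-F by 0.66 ± 0.22 (SE, adjusted p = 0.0391). Tceal1, Tceal8 and Bex3 (Ngfrap1 in the table) did not pass in RV PAB-F, with log2 fold changes of -0.15 ± 0.22, -0.27 ± 0.25 and 0.15 ± 0.15 (SE). The median log2 fold change of the 5 relatives in RV PAB-F was 0.15, against 0.02 over all genes, where 11.1% of genes were called in either direction.

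Per gene length Tceal7 was not the most abundant of its family in any RV group. In RV Sham-F its level was 1.54 ± 0.782 FPKM, against Bex1 at 2.27 ± 1.11, Tceal1 at 4.82 ± 1.14, Tceal9 at 13.7 ± 2.001, Tceal8 at 18.8 ± 4.76 and Bex3 at 19.4 ± 3.06 (SD, n = 9). In RV PAB-F the levels of Tceal7 and Bex1, at 13.9 ± 9.22 and 15.5 ± 14.1 FPKM, came within the spread of Tceal8 at 15.3 ± 2.70 (SD, n = 6). Of the TFIIS factors themselves, Tcea3 fell by 0.64 on the log2 scale in RV PAB-F (SE 0.15, adjusted p = 0.00254), and the other 2 did not pass. Of 5 tested genes linked to Tceal7 in muscle or growth control, 2 were called in RV PAB-F, where 11.1% of all genes were called, and 1 in LV AOB-F, where 12.9% were. Ccnd1 rose by 0.58 ± 0.19 and Mef2a fell by 0.74 (SE 0.15) in RV PAB-F, Myc rose by 0.87 ± 0.27 in LV AOB-F, and 4 myogenic factors of the list had too few counts to be tested.

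Of the other 3-O-sulfotransferases, Hs3st1 and Hs3st5 could be tested, and neither passed in the RV upon PAB. Their log2 fold changes in RV PAB-F were 0.62 ± 0.32 and -0.27 ± 0.22 (SE). Hs3st5 fell in LV AOB-F by 0.72 on the log2 scale (SE 0.22, adjusted p = 0.0206), where Hs3st2 rose. In RV Sham-F Hs3st5 was the most abundant of the family at 11.6 ± 2.15 FPKM, followed by Hs3st1 at 2.82 ± 1.20, whereas Hs3st2 stood at 0.0291 ± 0.0262 (SD, n = 9). In RV PAB-F Hs3st2 reached 2.11 ± 2.33 FPKM, against 9.46 ± 3.21 for Hs3st5 and 4.29 ± 2.11 for Hs3st1 (SD, n = 6). Hs3st3a1, Hs3st3b1 and Hs3st6 had too few counts.

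Among 17 tested enzymes that build or trim heparan sulfate chains, 2 rose in RV PAB-H, where 4.5% of genes were called, 3 rose in RV PAB-F, where 11.1% were called, and none fell in either. Sulf1 and Sulf2, extracellular enzymes that remove 6-O-sulfate groups, rose at both stages, Sulf1 by 1.35 ± 0.32 and 1.03 ± 0.30 and Sulf2 by 0.59 ± 0.14 and 0.61 ± 0.13 (log2, SE), and B3galt6, an enzyme of the linker that joins the chain to its protein, rose by 0.46 ± 0.15 in RV PAB-F. In LV AOB-F, with 12.9% of all genes called, 2 of the 17 rose, Hs2st1 by 0.51 ± 0.14 and Sulf2 by 0.36 ± 0.12. Of 9 tested core proteins, 1 rose in each of these comparisons and the other 8 did not pass. Among all genes, 3.91% (RV PAB-H), 7.66% (RV PAB-F) and 8.54% (LV AOB-F) were called higher. The syndecan Sdc1 rose in RV PAB-H by 1.55 ± 0.38, the glypican Gpc1 rose in RV PAB-F by 0.50 ± 0.17, and Sdc4 rose in LV AOB-F by 0.78 ± 0.20. The adjusted p of these calls lay between 0.000597 and 0.0479.

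For comparison, of 10 established load markers 6 rose in RV PAB-H and 9 in RV PAB-F, and 0 and 5 in LV AOB-H and LV AOB-F. Over all genes, 3.91%, 7.66%, 0.00837% and 8.54% were called higher in these comparisons. Nppa rose by 6.17 ± 0.60 in RV PAB-F and by 1.95 ± 0.51 in LV AOB-F (log2, SE), and was also called in RV AOB-F, at 2.82 ± 0.53, where 0.0669% of genes were called. Over all lists, 18 of 51 tested genes besides the 2 were called in RV PAB-F, where 11.1% of all genes were called. The 10 load markers, listed as genes known to rise under load, gave 9 of these 18 calls. The 18 became 10 without library 1 and 11 without library 2, the same libraries that held most of the reads of Hs3st2.

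The genes whose levels followed Tceal7 most closely over the 82 libraries, by Pearson's r of log2 CPM (depth-scaled counts) among 11953 genes, were Sesn3 (0.815), Maoa (0.793), Gba3 (0.782), Gpr155 (0.764) and Map1b (0.758). For Hs3st2 they were Sypl2 (0.809), Tgfa (0.799), Fam57b (0.791), Ankrd23 (0.788) and Epn3 (0.787). Taken as deviations from the group means, so that group differences drop out, Maoa (0.774), Ankrd1 (0.767) and Arpc5l (0.766) led for Tceal7, and Ecm1 (0.706), Nppa (0.688) and Gas6 (0.687) for Hs3st2. Tceal7 and Hs3st2 had an r of 0.650 with each other, rank 34 of the genes most like Tceal7, of 0.490 over the 70 libraries without the RV PAB groups, and of 0.507 as deviations. These values are a description, since libraries share animals, groups and depth, and they include the libraries on which the 2 genes were chosen.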

How the data were processed

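RNA of isolated ventricular cardiomyocytes was sequenced upon depletion of ribosomal RNA. Per the study's methods, the authors trimmed reads with Trim Galore, aligned them with STAR within nf-core/rnaseq to Rnor6.0 with the UCSC annotation, and counted them per gene with featureCounts. The deposited raw counts were tested here. The authors' normalized counts (a signal, scaled with DESeq2 1.28.1) and the authors' FPKM values served for an alternative scaling and for levels between genes.

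Genes with low counts were removed with filterByExpr, which left 11954 of 17337, libraries were scaled by TMM, and 12 group means were fitted to 82 libraries with edgeR 4.0.16 (quasi-likelihood test, Benjamini-Hochberg adjustment over all genes tested, threshold 0.05) in R 4.3.3. DESeq2 1.42.0 and limma 3.58.1 were used for alternatives. Normalized counts are raw counts over the effective library size times the mean effective size, 13282344. Log2 CPM values used a prior count of 2. The edgeR p-values set a difference against the spread between libraries. That spread was estimated with all 82 libraries, not from the compared groups alone. Intervals and floors cover counting error only. The fit was tested on simulated data: for the comparison of LV AOB-F with its sham group on 11954 genes, 197 of 200 genes with a log2 change of 1.5 were recovered and 9 others were called. The simulation gave every gene the same relative spread between animals, equal means in all groups for unchanged genes, and no shared animals. In the data the SD of Hs3st2 was 93.8% of its mean in LV AOB-F. The recovery therefore need not hold for genes as variable as the 2 genes.

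The genes and lists were chosen with earlier results of these data known. The genes named were the 2 genes, their relatives, other listed genes called in RV PAB-H, RV PAB-F, LV AOB-H or LV AOB-F, Nppa and Nppb, and the 5 genes of highest Pearson r with each gene. Names that the table gives in an older form were matched by gene ID. RV and LV libraries of 1 animal share it per the labels: the median correlation of their deviations was 0.296 to 0.517 within animals against -0.105 to 0.00390 between animals, with a lowest value of -0.148 in PAB-H. Gene IDs were matched to RefSeq for 17169 of 17337 genes. Comparisons with the same sham group share its libraries. Those that use the RV sham libraries, which took part in the choice of the genes, are given for the 2 genes as fitted values without a test. The tests of sex are an exception, since they include the RV sham and RV PAB libraries. Alternatives were other scalings, no filter, DESeq2, only the groups compared, sex as a covariate, blocks, and leaving out each library.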

Additional observations from a re-analysis of the deposited data

Results flagged for a closer look

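In 24 sets of 6 to 9 libraries, 1 for each gene and group, 3 libraries stood apart from the rest of their group by Dixon's criterion, all for Tceal7. Chance alone gives this in about 1 in 20 sets. RV PAB-H library 1 was the lowest of its group with a normalized count of 21.6, and it was also the library without a read of Hs3st2. LV Sham-F library 4 was the highest of its group at 95.9, and LV PAB-F library 6 was the lowest of its group at 13.04. None of these was left out of the values of the report.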

How the results depend on the processing

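Of 936 values recomputed for the 2 genes and the lists, 899 kept their direction and side of the threshold, among them 675 of 702 with 1 library left out. Hs3st2 kept its call in LV AOB-F and by sex, and Tceal7 by sex, under every alternative in which they were tested. For sex over all groups, none of these alternatives used the animal as a block. Each of them took the RV and LV libraries of the same rat as independent. Fitted on only the groups compared, Hs3st2 passed the count filter only in LV PAB-F (0.92), and female against male was recomputed without 22 libraries only.

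Hs3st2 between LV Sham-F and LV Sham-H passed with DESeq2 (1.71), whereas an exact permutation test gave 1.03 (p = 0.0566). Tceal7 passed in female LV AOB-F with DESeq2 (1.40), and did not pass between male and female LV AOB-F by exact permutation (1.04, p = 0.171). List genes called fell from 11 to 1 in LV AOB-F and rose from 9 to 16 in RV PAB-H with only the groups compared. The cause was not tested. Of the values that use the RV sham libraries, that of Tceal7 was 1.69 in RV AOB-F with sex as a covariate and 1.74 with DESeq2, and -0.74 between the Sham-H ventricles as a difference of mean log2 CPM.

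With 1 library left out, Hs3st2 ranged from -0.14 to 1.46 in LV AOB-H, from -0.94 to 0.66 for the LV minus RV response at hypertrophy, reversed in 10 of 26 fits, and from 1.33 to 2.40 between LV Sham-F and LV Sham-H, where it passed without LV Sham-H library 4 (adjusted p = 0.0158), LV Sham-F library 5 (0.0419) or 8 (0.0442). Its ratio in RV PAB-H ranged from 8.67 to 17.6. Tceal7 ranged from 0.68 to 1.52 in LV AOB-F, from 1.24 to 1.96 in LV AOB-H, from -0.059 (without LV Sham-F library 4) to 0.58 between LV Sham-F and LV Sham-H, and for males against females from 0.80 to 1.62 in LV AOB-F (passing without library 3) and from 1.39 to 2.15 in LV Sham-F. List genes called ranged from 6 (without LV AOB-F library 7) to 18 in LV AOB-F, from 10 to 18 in RV PAB-F and from 5 (without RV PAB-H library 2) to 15 in RV PAB-H.

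Counts over all genes moved more. With only the groups compared, called genes went from 1541 to 15 in LV AOB-F, from 1325 to 2726 in RV PAB-F, from 538 to 1642 in RV PAB-H, from 6 to 141 between the RV sham stages, from 2510 to 1499 between the Sham-H ventricles, from 8 to 2 in RV AOB-F and from 2 to 0 in LV AOB-H. RV PAB-H gave 346 without a filter and 326 with sex as a covariate, DESeq2 gave 29 in LV AOB-H, and single libraries moved RV PAB-H from 27 (without library 2) to 1044, RV PAB-F from 358 (without library 1) to 1714 and LV AOB-F from 751 (without LV AOB-F library 7) to 2511 (without LV Sham-F library 3), while male LV AOB-F went from 0 to 161 without LV Sham-F library 3. The difference between the sexes in response went from 402 to 38 without LV AOB-F library 7 and to 1139 without library 5, the Sham-H ventricles from 2510 to 675 without LV Sham-H library 4, and LV AOB-H from 2 to 199 without LV Sham-H library 2. DESeq2 gave 22 and the number block 18 between the RV sham stages, and the animal block 3888 between the Sham-H ventricles.

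The replicate numbers of banded and sham animals marked no shared animal. With them as a block Hs3st2 between LV Sham-F and LV Sham-H gave 1.80 (adjusted p = 0.0326). With the animal as a block, Hs3st2 between the Sham-F ventricles was -2.69. Hs3st2 is limited by depth, since 0 to 2 reads per library set its RV sham levels.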

Other observations

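Relatives of Tceal7 and genes of heparan sulfate were also compared between the ventricles of sham-operated rats of the failure stage. In this comparison 74.3% of all genes were called, 35.6% higher and 38.6% lower in RV Sham-F. The counts are given beside these shares as a description. Of the 5 tested TCEAL and BEX relatives of Tceal7, 4 were higher and 1 was lower in RV Sham-F than in LV Sham-F, with a median log2 fold change of 1.27 against -0.07 over all genes (edgeR). Of the 2 other 3-O-sulfotransferases tested, 1 was higher and 1 lower in RV Sham-F. Of 17 enzymes of heparan sulfate chains, 2 were higher and 11 lower in RV Sham-F, with a median of -0.54. Of 9 core proteins 2 were higher and 5 lower, with a median of -0.85. Over all groups, 3 of the 17 enzymes and 3 of the 9 core proteins were lower in females than in males and none was higher, where 17.2% of all genes were called and 9% were lower, whereas none of the 5 relatives of Tceal7 passed between the sexes. This fit by sex took the RV and LV libraries of the same rat as independent.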
